A study of Mus musculus with 8 samples.

Results

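The circadian clock genes Npas2, Clock, Cry1, Cry2, Per1, Per2, Per3, Nr1d1, Nr1d2 and Dbp were followed in mouse epidermis, as the 10 rows that carry these symbols among the 23171 genes of the deposited count table. All 10 passed the filter on low counts. RNA came from the epidermis of imiquimod-treated mice, labelled as keratinocytes. In 4 libraries Hnrnpu had been knocked out in the epidermis (cKO) and 4 came from wild-type mice (WT); the series lists 4 mice of each genotype. Imiquimod, a Toll-like receptor 7 agonist that brings on psoriasis-like inflammation of mouse skin, was given to both genotypes, so no untreated level stands beside these values. The sources used here do not give the Cre driver of the deletion, the age and strain of the mice, or the time of day at which skin was taken. The members were put together after Npas2 had been seen to be higher in cKO in these data, and the question was whether the other clock genes moved with it as a shift of clock phase would move them.

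In the mammalian clock, CLOCK or its paralog NPAS2 pairs with BMAL1, and the pair binds E-box sequences to switch on the Per and Cry genes, Nr1d1, Nr1d2 and Dbp. PER and CRY proteins then block that pair, and the nuclear receptors REV-ERBα (Nr1d1) and REV-ERBβ (Nr1d2) repress Bmal1 and Npas2, so the transcripts of the activator arm peak at about the opposite time of day from those of Nr1d1, Dbp and Per3. DBP and its relatives TEF and HLF are activators that bind D-box sequences, where NFIL3 is a repressor. Epidermal keratinocytes hold such a clock, and it is known to time DNA replication and differentiation in skin.

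Library totals ran from 37158621 to 38865722 counts. Hnrnpu averaged 307 ± 82.4 CPM over the cKO libraries, and over the WT libraries 437 ± 13.1 CPM (CPM being the read count scaled to library size with TMM factors, mean ± SD, n = 4 each), with a log2 fold change of -0.51 and an edgeR adjusted p = 0.191, and every cKO library lay below every WT library. Keratinocyte markers were abundant in both genotypes, their 8 measured genes summing to 59572 to 87118 CPM in cKO and 66935 to 88819 CPM in WT. Of the fibroblast, endothelial and skeletal muscle markers, 11 did not pass the count filter and had at most 19 counts in any library, though none of these was at 0 in all libraries. Another 5 fibroblast, 1 endothelial and 1 skeletal muscle markers passed it. Of these, Fbln1 averaged 39.3 CPM in cKO and 56.2 CPM in WT and Mylpf 3.16 and 4.18 CPM, and the rest at most 1.19 CPM in either genotype. Fewer cells of a type and less RNA per cell cannot be told apart in such bulk libraries.

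Of the 10 clock genes, 1 rose in cKO and none fell (edgeR quasi-likelihood test, adjusted p below 0.05), where 1.32% of all 14004 tested genes were called, 0.671% as higher and 0.65% as lower. The gene that rose was Npas2, which had been seen to be higher before the 10 genes were chosen. The other 9 were not called. The median log2 fold change (cKO over WT throughout) was 0.11 over the 10 genes and 0.01 over all tested genes. In 2 of the 10, Npas2 and Per1, all cKO libraries lay above all WT libraries, a pattern seen in 5.26% of tested genes (11.1% in either direction), and in none did they lie below, against 5.82%. Apart from Npas2, whose level was known beforehand, only Per1 had such a gap.

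Npas2, the paralog that can take the place of CLOCK beside BMAL1, was at 0.572, 0.364, 0.555 and 0.619 CPM in cKO replicates 1 to 4 and at 0.0786, 0.111, 0.194 and 0.0803 CPM in WT replicates 1 to 4. The genotypes did not overlap, the lowest cKO library (replicate 2) standing above the highest WT library (replicate 3). The fitted rise was 4.48-fold (log2 fold change 2.16 ± 0.42 SE, 95% confidence interval 2.34-fold to 8.57-fold, edgeR adjusted p = 0.0429). Since Npas2 was known to be higher when the genes were chosen, these values describe it and are no independent support. The level was low in both genotypes. Behind it stood 22, 13, 23 and 26 counts in cKO replicates 1 to 4 and 3, 4, 7 and 3 counts in WT replicates 1 to 4. Per length, Clock was 68.3 times as abundant as Npas2 in cKO (8.73 against 0.128 FPKM) and 314 times in WT (8.32 against 0.0265 FPKM). The call depended on which libraries were kept, while the log2 fold change stayed between 2.02 and 2.51 whichever 1 was left out. The calls over all genes moved too, from 185 to between 8 and 506. The Npas2 call was kept when cKO replicate 2 was left out (adjusted p = 0.0340). It was lost when any other cKO library was left out, with an adjusted p of 0.0909 for replicate 1, 0.0837 for replicate 3 and 0.0700 for replicate 4, and likewise for WT replicates 1 to 4, at 0.0988, 0.112, 0.0793 and 0.132.

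**Figure D1:**
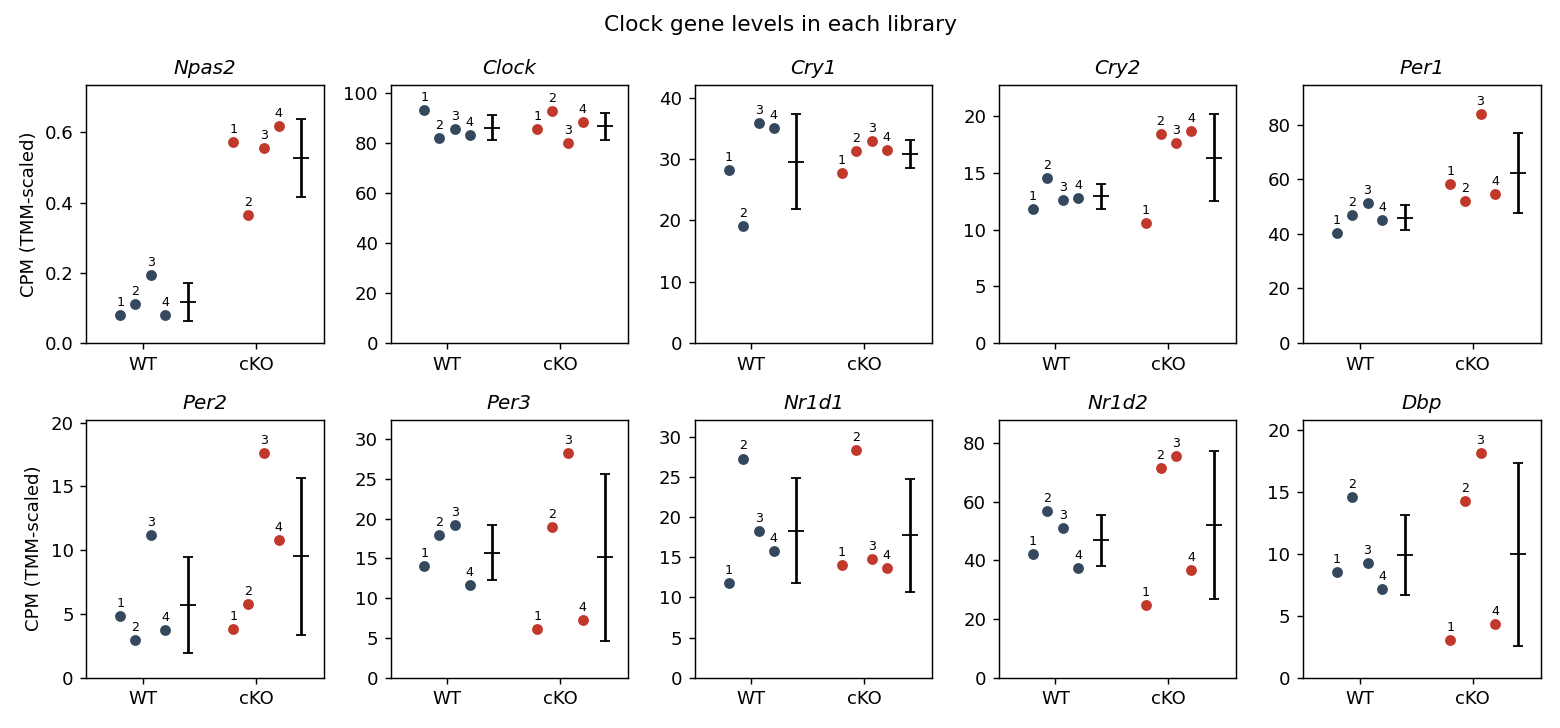
Level of each clock gene in each library (CPM with TMM scaling on the vertical axis, a separate scale per gene). Points are libraries with their replicate numbers, WT in dark blue and cKO in red, and bars give mean and SD (n = 4). Npas2 separates the genotypes below 0.7 CPM, whereas Per3, Nr1d2 and Dbp spread widely among the cKO libraries around means close to those of WT.

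Clock, the usual activator partner of BMAL1, was nearly level across the 8 libraries. It stood at 85.8, 92.8, 80.0 and 88.3 CPM in cKO replicates 1 to 4 and at 93.2, 81.9, 85.7 and 83.4 CPM in WT replicates 1 to 4. Its interval was the narrowest of the 10, from 0.881 to 1.15 times the WT level (log2 fold change 0.01 ± 0.09 SE, edgeR adjusted p = 0.965). Bmal1, the shared partner of CLOCK and NPAS2, was at 29.9, 32.3, 27.3 and 30.7 CPM in cKO and at 27.1, 20.7, 31.2 and 24.2 CPM in WT, in the order of replicates 1 to 4. The genotypes overlapped, and the difference of 1.16-fold (0.948 to 1.43) did not pass (log2 fold change 0.22 ± 0.13 SE, adjusted p = 0.410). Bmal2, a Bmal1 paralog, gave 0.32 ± 0.25 (adjusted p = 0.521).

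Among the repressors, Per1 had the second genotype gap without overlap. Per1, a period gene that glucocorticoids and acute stimuli also induce, was at 58.3, 52.2, 83.9 and 54.7 CPM in cKO and at 40.4, 47.0, 51.3 and 45.1 CPM in WT, replicates 1 to 4. The lowest cKO library, replicate 2, stood just above the highest WT library, replicate 3, and cKO replicate 3 was well above the rest. The difference was 1.36-fold (95% confidence interval 1.06 to 1.73) and did not pass (log2 fold change 0.44 ± 0.16 SE, edgeR adjusted p = 0.184). By the two-sided exact permutation test over the 70 splits of 4 against 4, Per1 and Npas2 both gave p = 0.0286, the smallest that this design allows.

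Per2, the period gene most needed for a stable rhythm in mice, was at 3.85, 5.80, 17.6 and 10.8 CPM in cKO and at 4.82, 2.93, 11.2 and 3.77 CPM in WT, replicates 1 to 4. Replicate 3 was the highest library in each genotype, and the genotypes overlapped (log2 fold change 0.74 ± 0.54 SE, edgeR adjusted p = 0.498). Per3, a further period gene with a strong rhythm in peripheral tissues, was at 6.11, 19.0, 28.3 and 7.21 CPM in cKO and at 14.0, 17.9, 19.2 and 11.7 CPM in WT. Here cKO replicates 1 and 4 lay below every WT library and cKO replicate 3 above, while the means, 15.2 ± 10.5 and 15.7 ± 3.46 CPM (SD, n = 4 each), were close (log2 fold change -0.05, interval -1.07 to 0.96, adjusted p = 0.971).

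The cryptochromes, which carry most of the repression, did not pass. Cry1 was at 27.7, 31.4, 33.0 and 31.5 CPM in cKO and at 28.2, 19.1, 36.0 and 35.1 CPM in WT, replicates 1 to 4. All cKO libraries fell within the WT range, which WT replicate 2 widened downwards (log2 fold change 0.06 ± 0.18 SE, edgeR adjusted p = 0.896). Cry2 was at 10.6, 18.4, 17.7 and 18.7 CPM in cKO and at 11.8, 14.5, 12.6 and 12.8 CPM in WT. Of the cKO libraries, 3 lay above all WT libraries and replicate 1 below them (0.34 ± 0.18, adjusted p = 0.362).

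The REV-ERB genes had similar means in both genotypes. Nr1d1, whose protein represses Bmal1 and Npas2, was at 14.1, 28.3, 14.8 and 13.7 CPM in cKO and at 11.8, 27.3, 18.2 and 15.8 CPM in WT, replicates 1 to 4. Replicate 2 was the highest library in each genotype, and the difference was -0.05 ± 0.31 (log2 fold change, SE, edgeR adjusted p = 0.958). Nr1d2, its paralog, was at 24.7, 71.5, 75.5 and 36.6 CPM in cKO and at 42.2, 56.8, 51.0 and 37.3 CPM in WT. Replicates 2 and 3 of cKO lay above and replicates 1 and 4 below all WT libraries (0.15 ± 0.33, adjusted p = 0.853).

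Dbp, the D-box activator that serves as a common readout of clock output, showed the widest spread among the 10 genes in cKO. It was at 3.04, 14.3, 18.2 and 4.35 CPM in cKO and at 8.57, 14.6, 9.25 and 7.17 CPM in WT, replicates 1 to 4. The lowest and highest cKO libraries were 5.97-fold apart and the WT libraries 2.04-fold, yet the means were 9.95 ± 7.42 and 9.90 ± 3.26 CPM (SD, n = 4 each). The log2 fold change was 0.01 ± 0.53 SE (edgeR adjusted p = 0.996), and its interval runs from 0.443 to 2.28 times the WT level. Differences within that interval were not detectable with this spread.

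**Figure D2:**
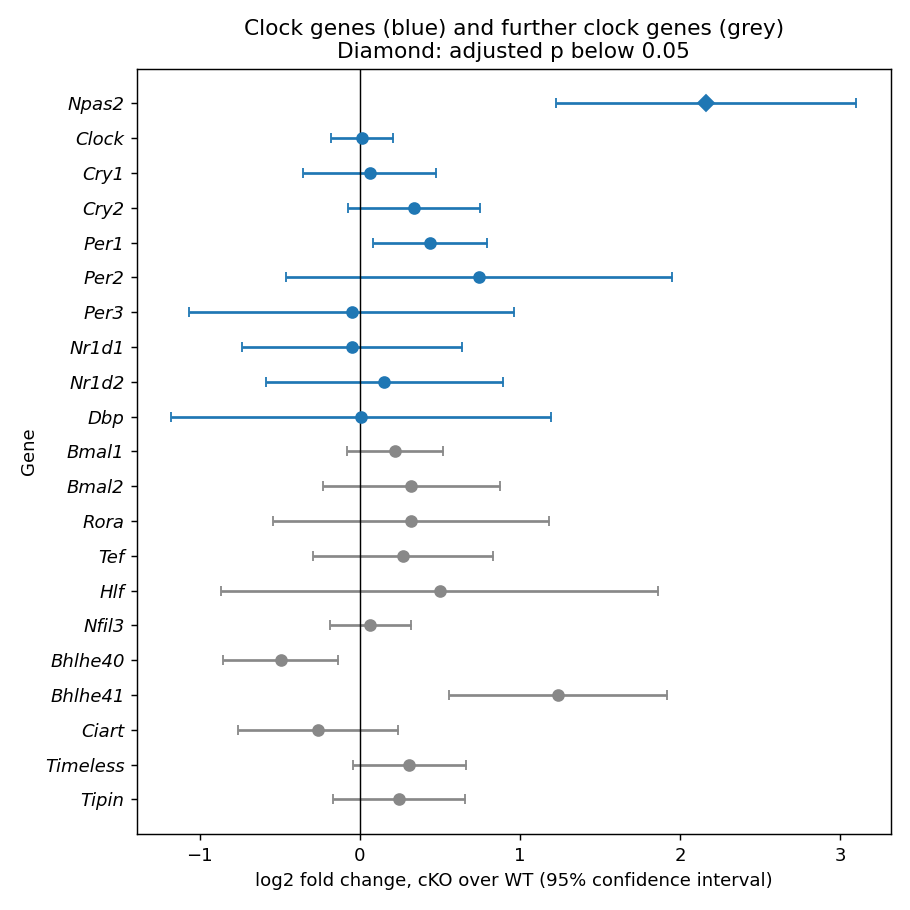
Log2 fold change of cKO over WT with 95% confidence interval (horizontal axis) for the 10 clock genes in blue and 11 further clock genes in grey. The diamond marks the gene with an adjusted p below 0.05, Npas2 at 2.16, and the intervals of Dbp, Per3 and Hlf are wide on both sides of 0.

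A difference in clock phase could move the activator arm and the Per, REV-ERB and Dbp arm in opposite directions. How far and which way depends on the time of sampling, which is not given. After subtraction of the 8-library mean of each gene, the mean log2 CPM of Npas2, Clock and Bmal1 was 0.34 ± 0.08 in cKO and -0.34 ± 0.20 in WT (SD, n = 4 each), a difference that came mostly from Npas2, the gene that prompted the choice. That of Per1, Per2, Per3, Nr1d1, Nr1d2 and Dbp was 0.04 ± 0.68 in cKO and -0.04 ± 0.28 in WT. Within cKO, replicates 1 and 4 had the highest activator arm (0.38 and 0.44) and the lowest second arm (-0.74 and -0.29). In the activator arm, their lead over replicate 2 came from Npas2 alone, at 13 to 26 counts in cKO. Npas2 was at 0.45 in cKO replicate 2 and at 1.04 and 1.14 in replicates 1 and 4. Clock (0.11 against -0.01 and 0.03) and Bmal1 (0.22 against 0.11 and 0.15) were instead highest in replicate 2. Of the second arm's 6 genes, 4 had a positive and 2 a negative log2 fold change, and none passed.

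The difference of the arms, activator minus the other, was 1.12, -0.14, -0.50 and 0.74 in cKO replicates 1 to 4 and -0.14, -0.60, -0.31 and -0.16 in WT replicates 1 to 4. Replicates 1 and 4 of cKO stood above all WT libraries, while replicate 2 stood level with the highest WT library and replicate 3 within the WT range. The genotype means differed by 0.61, and by 0.04 when Npas2 was left out of the activator arm, an alternative added after its share in the difference had been seen. This index is a score over genes chosen with results known and is given with no test. With the time of sampling not given, a change of phase and a change of amplitude cannot be told apart.

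**Figure D3:**
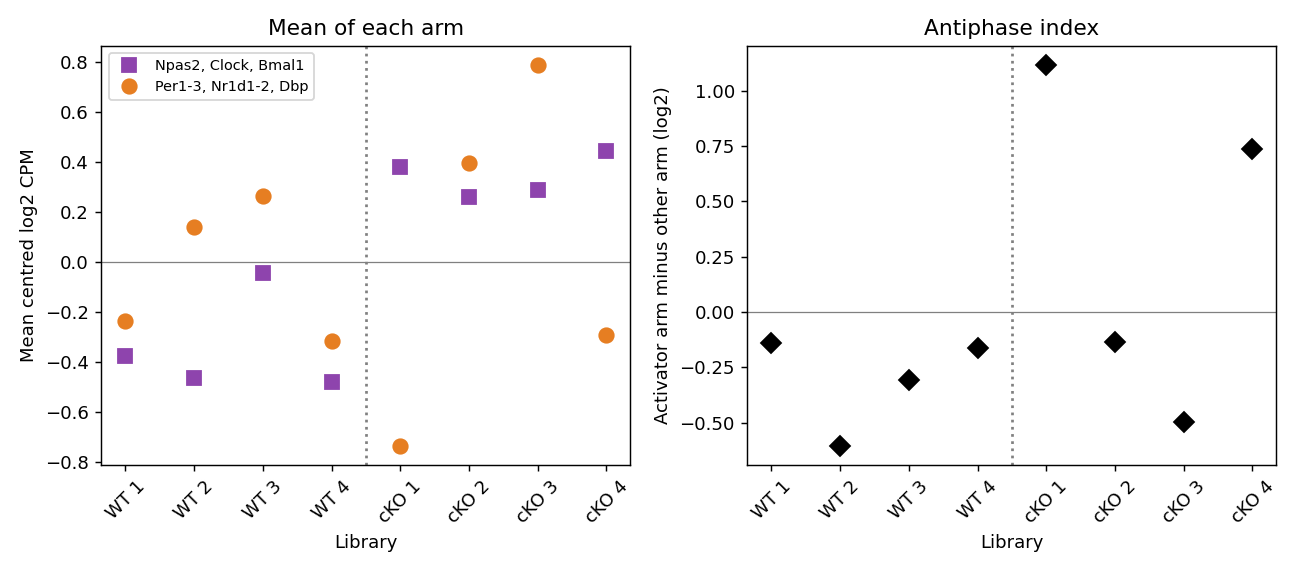
Left, mean centred log2 CPM of the activator arm (squares) and of the Per, REV-ERB and Dbp arm (circles) in each library. Right, the difference of the arms on the same log2 scale, with cKO replicates 1 and 4 at 1.12 and 0.74 and the other 6 libraries between -0.60 and -0.14.

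The pattern shared by several members was one among libraries of a genotype. Dbp, Nr1d2 and Per3 were high in the same libraries and low in the same libraries. With each genotype's mean removed, the log2 CPM of Dbp had a Pearson r of 0.98 with Nr1d2 and of 0.96 with Per3 over the 8 libraries (Spearman's rho 1 and 0.98), as a description with no test. Ranked by r with Dbp among 12143 genes of at least 1 CPM on average, Nr1d2 was in place 4 and Per3 in place 22. Tef, the D-box activator related to Dbp, was in place 29 (r = 0.96), Ciart, a clock repressor, in place 244 (r = 0.90), and Hlf in place 309 (r = 0.89). Without the 2 libraries farthest from the median of Dbp, cKO replicates 1 and 3, r was 0.96 for Nr1d2, 0.91 for Per3 and 0.92 for Tef. Within the 4 WT libraries alone, r was 0.91, 0.70 and 0.96 for these 3 genes, but -0.82 for Hlf.

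The activator arm did not mirror this pattern. The r with Dbp was -0.21 for Clock, -0.26 for Bmal1 and -0.24 for Npas2, and 60.3%, 62.8% and 62.2% of the genes had an r at least as high. The remaining members were between, Cry2 at 0.66, Nr1d1 at 0.55, Per1 at 0.47, Per2 at 0.33 and Cry1 at -0.09. Outside the members, Bmal2 was at -0.70 (-0.81 within cKO and 0.63 within WT) and Rora at 0.82. For Cry2 the value without the same 2 libraries was 0.26, and for Nr1d1 it was 0.87. The 3 named genes most like Dbp were Naprt, a nicotinic acid phosphoribosyltransferase of NAD synthesis (r = 0.99), Slc10a3 (r = 0.98) and Tmem241 (r = 0.98). Those most like Npas2 were Pir (r = 0.97), Chd4, a chromatin remodeller (r = 0.95), and Btg2, an antiproliferative gene (r = 0.95). They were picked as the highest among 12144 genes. Npas2 itself, at 3 to 26 counts per library, lay below the 1 CPM asked of those genes, so counting error weighs on its r values. All of these correlations share the same 8 libraries.

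**Figure D4:**
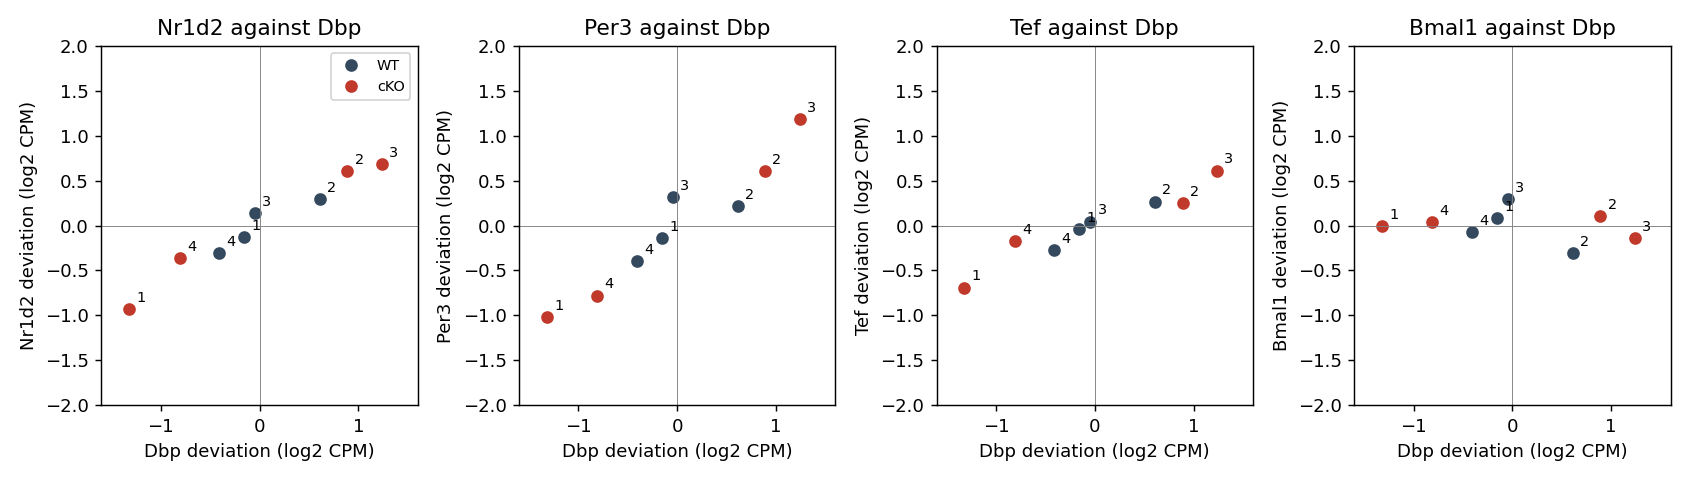
Deviation of log2 CPM from the genotype mean for Nr1d2, Per3, Tef and Bmal1 (vertical axes) against that for Dbp (horizontal axis). Points are 8 libraries, numbered by replicate, WT in dark blue and cKO in red. Nr1d2, Per3 and Tef follow Dbp (r = 0.98, 0.96 and 0.96), and Bmal1 stays flat (r = -0.26).

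The swing of this group was wider in cKO than in WT. The SD of log2 CPM was 1.25 in cKO and 0.44 in WT for Dbp, 1.07 and 0.33 for Per3, and 0.78 and 0.27 for Nr1d2. Over 12144 genes the median SD was 0.25 in cKO and 0.17 in WT, and 71.3% of genes had the larger SD in cKO, beside 8 of the 10 clock genes. Of these genes, 2.09% had an SD in cKO as high as Dbp, 3.24% as high as Per3 and 7.53% as high as Nr1d2. Cry2, Per3, Nr1d2 and Dbp were the 4 of 10 members whose cKO range enclosed the WT range on both sides, which held for 28.3% of tested genes. The split of the cKO libraries, with replicates 2 and 3 high and replicates 1 and 4 low, was also seen on the second principal component of all genes, on which the cKO libraries stood at 36.7, -35.8, -27.7 and 56.8 and the WT libraries between -12.4 and 3.30. Hnrnpu was at 190, 373, 355 and 312 CPM in cKO replicates 1 to 4, lower in replicates 1 and 4. Its relation to the split was not tested. The 9 leukocyte markers summed to 3010, 827, 1000 and 3841 CPM in cKO replicates 1 to 4, low where Dbp was high, and most of this sum was the neutrophil and stressed keratinocyte gene S100a8, at 2950, 763, 941 and 3812 CPM. The 8 keratinocyte markers summed to 77967, 87118, 65089 and 59572 CPM, which does not follow that split. That sum joins markers that ran in opposite directions. Single markers, named after their values were seen, went both ways. Involucrin (Ivl), Lor and Krt10, of differentiated keratinocytes, were higher in cKO replicates 2 and 3 than in 1 and 4. In cKO replicates 1 to 4, Ivl was at 631, 972, 746 and 345 CPM and Lor at 1940, 3484, 2499 and 834 CPM. Krt10 was at 25808, 33451, 26482 and 17493 CPM and Cd207, of Langerhans cells, at 5.88, 25.9, 15.9 and 3.21 CPM. Krt5, of basal keratinocytes, was at 10145, 7491, 6643 and 9763 CPM, the desmosomal cadherin Dsg3 at 163, 127, 107 and 247 CPM and the myeloid gene Lyz2 at 15.8, 3.56, 5.16 and 7.40 CPM. The part of cell composition in the spread of Dbp, Per3 and Nr1d2 was not tested.

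The 250 bases before the RefSeq start (GRCm38.p6) of Dbp, Nr1d2, Per3 and Tef, which varied together, are shown. E-box and D-box sequences are sites at which the clock acts on such genes. Sequences read 5′ to 3′ on the gene's strand, and capitals mark motif matches.
Dbp, chr7:45704997-45705246, plus strand: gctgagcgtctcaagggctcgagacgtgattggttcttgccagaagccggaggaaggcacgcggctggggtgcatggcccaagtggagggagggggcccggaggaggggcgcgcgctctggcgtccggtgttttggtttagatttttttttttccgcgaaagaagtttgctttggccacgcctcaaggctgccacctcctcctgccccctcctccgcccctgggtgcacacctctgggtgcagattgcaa
Nr1d2, chr14:18239107-18239356, minus strand: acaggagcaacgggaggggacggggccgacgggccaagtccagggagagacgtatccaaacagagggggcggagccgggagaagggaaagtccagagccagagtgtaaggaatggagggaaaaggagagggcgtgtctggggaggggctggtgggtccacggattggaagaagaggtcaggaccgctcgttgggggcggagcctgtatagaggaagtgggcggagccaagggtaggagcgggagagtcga
Per3, chr4:151044666-151044915, minus strand: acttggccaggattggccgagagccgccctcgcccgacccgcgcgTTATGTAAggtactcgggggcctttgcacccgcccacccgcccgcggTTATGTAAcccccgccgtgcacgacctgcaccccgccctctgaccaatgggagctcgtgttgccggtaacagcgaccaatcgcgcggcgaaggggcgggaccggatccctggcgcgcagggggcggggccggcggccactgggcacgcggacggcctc
Tef, chr15:81802423-81802672, plus strand: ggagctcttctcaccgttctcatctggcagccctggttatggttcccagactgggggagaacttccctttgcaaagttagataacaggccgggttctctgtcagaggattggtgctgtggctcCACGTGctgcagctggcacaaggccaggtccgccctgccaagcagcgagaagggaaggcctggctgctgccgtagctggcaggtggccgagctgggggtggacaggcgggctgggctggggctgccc
Windows were searched on both strands for the E-box (CACGTG), a weaker E-box form (CACGTT), the D-box (TTATGTAA or TTACGTAA), the core of the REV-ERB and ROR element (TAGGTCA or TGGGTCA) and the cAMP response element (TGACGTCA). None of these motifs contains another. Per3 had a pair of D-boxes, starting 205 and 158 bases before the gene's start, where 0.931% of all 32851 windows held any. Tef had an E-box at 127 bases before the start shown and at 138 bases before its other listed start, a motif held by 6.02% of windows. Of the windows not shown, that of Ciart had E-boxes at 116, 58 and 44 bases. That of Hlf had a cAMP response element at 9 bases. The Dbp and Nr1d2 windows held no match, which says only that these letters are not in this stretch. Of the 10 members, 9 had a window in the table. Among the other members, Per1 (166 bases before 1 of its 2 listed starts) and Cry1 (60 bases) had an E-box, the weaker form occurred in Cry1, Cry2 and Nr1d1, and the Npas2 and Clock windows held no match. The weaker form was in 3.85% of windows, the REV-ERB and ROR core in 5.38% and the cAMP response element in 1.55%.

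The other clock genes on the list gave no call either way. Of 12 described here, 11 passed the filter. The log2 fold change was positive in 9 and negative in 2 (median 0.27), and none passed the test. Over all tested genes, 7265 of 14004 were positive, the median was 0.01 and 1.32% were called. Rorb had at most 1 count. In 1 of the 11 the genotypes did not overlap, with cKO above WT, as in 5.26% of all tested genes. This was Bhlhe41 (DEC2), a repressor at E-boxes. It was at 4.79, 2.91, 4.90 and 2.57 CPM in cKO and at 2.10, 1.11, 1.56 and 1.66 CPM in WT, replicates 1 to 4. All cKO libraries were higher, and the difference of 2.36-fold (1.47 to 3.78) did not pass (log2 fold change 1.24 ± 0.30 SE, edgeR adjusted p = 0.0747). Its paralog Bhlhe40 (DEC1) averaged 82.7 ± 12.8 CPM over the cKO libraries against 117 ± 20.7 CPM over the WT libraries (SD, n = 4 each), the opposite sign, also without passing (-0.50 ± 0.16 SE, adjusted p = 0.142). Hlf was at 4.60, 23.3, 32.2 and 3.90 CPM in cKO and between 9.79 and 12.4 CPM in WT, with replicates 1 and 4 below and 2 and 3 above every WT library (0.50 ± 0.61, adjusted p = 0.710). Tef (0.27 ± 0.25, adjusted p = 0.604), Ciart (-0.26 ± 0.22, 0.567) and the D-box repressor Nfil3 (0.06 ± 0.11, 0.815) did not pass. Neither did Rora, an activator at the REV-ERB sites (0.32 ± 0.38, 0.706), nor the replication fork partners Timeless (0.31 ± 0.16, 0.330) and Tipin (0.25 ± 0.18, 0.514).

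**Figure D5:**
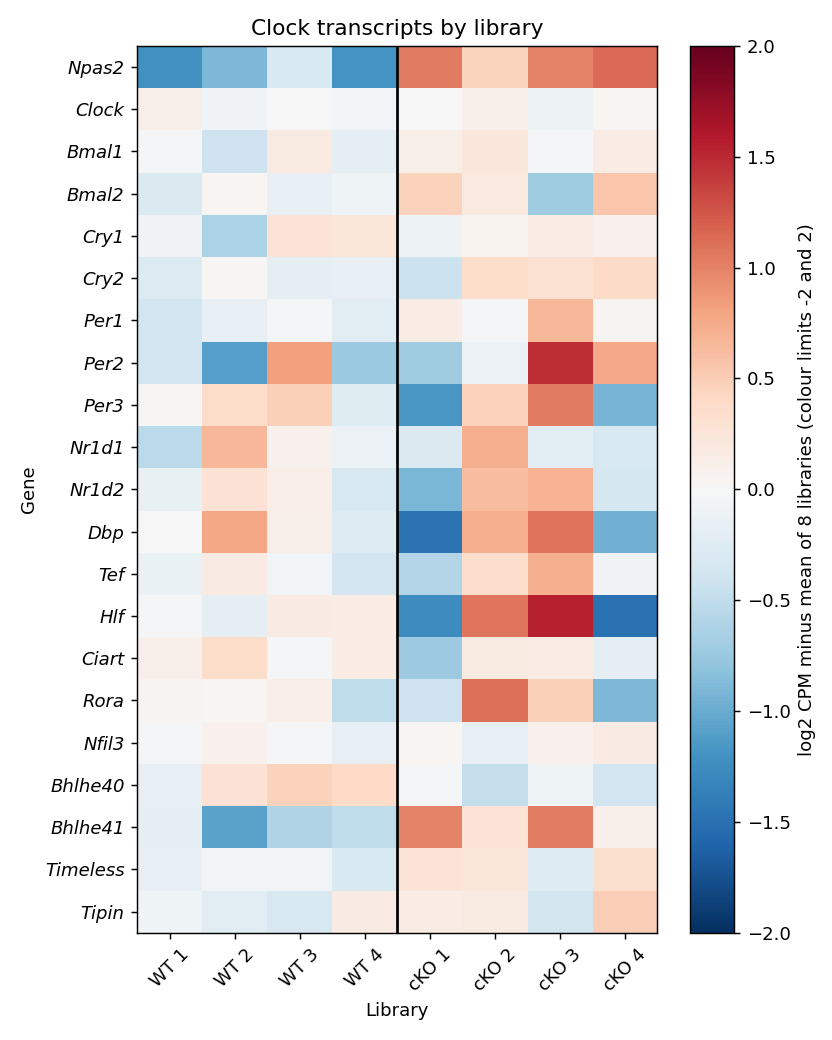
Log2 CPM minus the gene's mean over the 8 libraries (colour) for 21 clock transcripts (rows) in 4 WT and 4 cKO libraries (columns). Npas2 separates the genotypes, and Per3, Nr1d2, Dbp and Hlf are low in cKO replicates 1 and 4 and high in cKO replicates 2 and 3.

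Of the 11 tested kinases and ubiquitin ligases that act on clock proteins, none was called (6 positive, 5 negative, median 0.10), against 1.32% of all tested genes. The casein kinases Csnk1d, which phosphorylates PER proteins (-0.12 ± 0.09 SE, edgeR adjusted p = 0.479), and Csnk2a1 (0.20 ± 0.08, adjusted p = 0.236) were the most abundant. In 3 of the 11 the cKO libraries all lay above WT, as in 5.26% of all tested genes: Csnk2a1, Csnk1e and Usp2, the last 2 being named after their values were seen. Usp2, a deubiquitinase with a strong circadian rhythm, was at 16.6, 28.0, 24.6 and 15.6 CPM in cKO and at 5.35, 8.93, 9.11 and 2.92 CPM in WT, replicates 1 to 4. Each cKO library was higher than each WT library, and the difference of 3.23-fold fell just short of the threshold (log2 fold change 1.69 ± 0.36 SE, edgeR adjusted p = 0.0530). Usp2 passed with the replicate number as a block (0.0198), by library size alone (0.0410), with no low-count filter (0.0293), with DESeq2 (1.37e-04) and with limma on filtered log2 FPKM (0.0315 and 0.0443 with pseudocounts of 1 and 0.1). It did not pass with limma-voom (0.0509), RLE factors (0.0530) or a filter of 1 CPM in 4 libraries (0.0544). Nor did it pass with limma on unfiltered log2(FPKM + 1) (0.104) or with any 1 library left out (0.0525 to 0.110). Csnk1e, a kinase of PER proteins, gave 0.55 ± 0.16 (adjusted p = 0.121).

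Of 8 clock output genes, including Usp2, Tef, Hlf and Ciart, none was called (5 positive, 3 negative, median 0.38), against 1.32% of all tested genes. In 2 of the 8, Usp2 and Wee1, all cKO libraries lay above WT, and in 1, Klf10, below. Over all tested genes these shares were 5.26% and 5.82%. Klf10, a Krüppel-like factor under clock control, was at 113, 136, 136 and 132 CPM in cKO and at 169, 162, 221 and 198 CPM in WT, replicates 1 to 4. All cKO libraries were lower, without passing (log2 fold change -0.54 ± 0.12 SE, edgeR adjusted p = 0.0582). Wee1, the mitotic inhibitor kinase driven by E-boxes and named after its value was seen, was at 21.8, 22.1, 55.9 and 22.8 CPM in cKO and at 15.4, 13.7, 12.4 and 14.2 CPM in WT (1.14 ± 0.31, adjusted p = 0.0940). Without cKO replicate 3, far above the rest, its log2 fold change was 0.69 and passed (adjusted p = 0.0464). Wee1 did not pass when any other library was left out (edgeR adjusted p 0.0635 to 0.214).

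Per1 is also a glucocorticoid receptor target. Of 8 glucocorticoid-induced genes, Per1 among them, 3 rose and none fell (median 0.58), against the 0.671% of all genes called higher. Fkbp5, a chaperone of the receptor, rose 2.41-fold (log2 fold change 1.27 ± 0.20 SE, edgeR adjusted p = 0.0301), Zbtb16, a transcription factor, 4.24-fold (2.08 ± 0.36, adjusted p = 0.0337) and Tsc22d3 (GILZ), named after its value was seen, 2.07-fold (1.05 ± 0.21, adjusted p = 0.0456). The kinase gene Sgk1 (0.25 ± 0.16, adjusted p = 0.440) and Errfi1 (-0.07 ± 0.22, adjusted p = 0.910) did not pass. Leaving out cKO replicate 1 or 3, or any 1 of the 4 WT libraries, ended the call of all 3 genes (adjusted p between 0.0509 and 0.131), and Tsc22d3 was also lost without cKO replicate 4 (0.0635). With the replicate number as a block, Zbtb16 (0.0679) and Tsc22d3 (0.0899) were not called. None of 10 immediate early genes passed (median 0.14), against 1.32% of all tested genes. Junb was at -0.49 ± 0.26 (adjusted p = 0.349) and Egr1 at 0.35 ± 0.48 (adjusted p = 0.749). Fosb and Atf3, named after their values were seen, were at 117 and 71.6 CPM in cKO replicate 3, the library in which Per1 and Per2 were highest, and at most 14.1 and 7.99 CPM elsewhere. The list did not move together in that library. Nr4a1 was also highest there (31.2 CPM), but Junb was lowest there (163 CPM). Fos was at 39.6 CPM there and at 114 CPM in cKO replicate 4. Nr4a1 and Fos were likewise named after their values were seen.

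Most markers of skin appendages did not pass the test, but their summed levels lay higher in most cKO libraries. Of all tested genes, 7265 of 14004 had a positive log2 fold change, 0.671% were called higher and 0.65% lower. Of 14 tested hair follicle markers, 12 had a positive log2 fold change, 3 rose, 1 fell and 10 were not called, and their summed level was 4503 to 6495 CPM in cKO and 3278 to 3720 CPM in WT. Most of this sum was Krt79 (mean 2763 against 1432 CPM) and Krt17 (2034 against 1584 CPM, overlapping). Tchh (log2 fold change -1.30, called) and Krt27 (-2.13, not called) were lower in all cKO libraries. These 4 genes were named after their values were seen. Of 10 sebaceous gland markers, 9 were positive and 1 rose (1126 to 3451 against 858 to 1468 CPM). The largest part of that sum was Scd1 (mean 1467 against 584 CPM), also named after its value was seen. Of 8 melanocyte markers, 8 were positive and 1 rose (61.1 to 123 against 35.9 to 53.7 CPM). Of the 9 tested leukocyte markers, 8 had a negative log2 fold change and none passed (827 to 3841 against 1778 to 7509 CPM). The part of these cells in the levels of Npas2, Per1, Usp2 and Bhlhe41 was not tested.

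Reads from genes on opposite strands could not be told apart, because the strand setting of the counting is not given. In the GENCODE M21 annotation, 18.0% of the exonic bases of Dbp overlap Sphk2 and 8.5% of those of Nr1d1 overlap Thra, both on the opposite strand, and 4.7% of those of Cry2 overlap a non-coding model. Sphk2 was between 53.0 and 73.2 CPM in cKO and between 52.5 and 60.1 CPM in WT, without the 5.97-fold spread of Dbp.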

How the data were processed

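RNA-seq of imiquimod-treated mouse epidermis was analysed, 4 cKO and 4 WT libraries grouped by the genotype in their titles. The authors deposited raw counts for each gene symbol and FPKM values, made with HISAT2 and HTSeq per the submitters' processing notes. The sources used here give no versions, genome build, annotation or strand setting. The deposited FPKM values are the counts divided by library total and by 1 length per gene (20863 of 20863 genes detected in 2 or more libraries, relative tolerance 1e-04), so they hold the same reads and served for levels per length and as an alternative.

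Genes were filtered with filterByExpr (14004 of 23171 kept), scaled with TMM factors (0.934 to 1.08) and tested by quasi-likelihood in edgeR 4.0.16 under R 4.3.3, with no covariate. Benjamini-Hochberg adjustment ran over the 14004 genes, and genes with an adjusted p below 0.05 were called. SEs are those implied by the F statistic. Log2 CPM used a prior count of 2. No pair of libraries of a genotype agreed within sampling noise (lowest chi-square per degree of freedom 47.9), and all 8 were kept. The script was tested on simulated data. The labels put all libraries in the same batch. The series lists 4 mice per genotype but does not say that each library is 1 mouse, so p-values measure the spread between these samples, part of which may be technical.

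The members and lists were chosen with earlier results of these data known. Named genes are the 10 members, the other clock genes (1 is not reported here), and of each further list the called genes (up to 2 per direction) and the 2 most abundant that did not pass. The 3 genes most like Dbp and Npas2 and Hnrnpu were added. Some further genes, marked so in the text, were named after their values were seen. Alternatives were DESeq2 1.42.0, limma-voom (limma 3.58.1), RLE factors, scaling by library size only, keeping all genes with a count, a filter of 1 CPM in 4 libraries, limma on log2 FPKM with a pseudocount of 1 or 0.1 above a mean of 0.5 FPKM (with 1 also unfiltered), the replicate number as a block, and each library left out.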

Additional observations from a re-analysis of the deposited data

Results flagged for a closer look

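In 42 groups of 4 libraries (21 clock genes in 2 genotypes), 3 had 1 library far from the others by Dixon's criterion, where chance flags about 1 in 20 groups. Cry2 was at 10.6 CPM in cKO replicate 1, the next lowest cKO library being at 17.7 CPM. Nr1d1 was at 28.3 CPM in cKO replicate 2, with the next at 14.8 CPM. Timeless was at 7.91 CPM in cKO replicate 3, below the next at 11.2 CPM.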

How the results depend on the processing

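The number of genes called, 185, was 1266 with DESeq2, 349 without a low-count filter and 19 with limma on log2(FPKM + 1) without a filter, and ran from 8 to 506 when 1 library was left out. The 1 called clock gene, Npas2, was the call at stake in each alternative count of members. None of the 10 was called with limma-voom (Npas2 adjusted p = 0.0516), without a low-count filter (0.0589) or with limma on log2(FPKM + 1) without a filter (0.0751). The count was also 0 with the filters of at least 1 CPM in 4 libraries and of 0.5 FPKM, which left Npas2 untested, and 0 to 1 when 1 library was left out. The adjusted p of Npas2 ranged from 0.00268 with DESeq2 to 0.132 without WT replicate 4 over 15 alternatives, its log2 fold change was positive in all 15, and 4 of them called it. No other member was called in any of its 18 alternatives. The log2 fold change of Dbp ranged from -0.46 to 0.31, of Per3 from -0.54 to 0.21 and of Nr1d1 from -0.35 to 0.21, so their sign depended on the setting. The sign of Clock, Cry1 and Nr1d2 turned in 3, 1 and 2 of 18 alternatives.

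The difference of the arms between genotypes was 0.0447 without Npas2 (chosen after seeing the data), 0.26 on log2(FPKM + 0.1) and 0.34 to 0.88 when 1 library was left out. The r of Dbp with Nr1d2 stayed between 0.97 and 0.99 and with Per3 between 0.94 and 0.99 when 1 library was left out, while with Clock it ran from -0.60 to 0.30.

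With the replicate number as a block, 0 clock genes were called and Npas2 had an adjusted p = 0.0832. The numbers are not said to pair mice. The correlation of same-numbered deviations over genes was -0.10, 0.13, 0.10 and 0.19, not above 0.1 in every pair, and 4 of 8 libraries correlated best with their own number, so the numbers were used as names only. The block gave 216 calls over all genes. Outside the members, Csnk1e (adjusted p = 0.0371) and Usp2 (0.0198) passed with the block, while Zbtb16 (0.0679) and Tsc22d3 (0.0899) lost their call, as they did with limma-voom (0.0540 and 0.0516). DESeq2 called Bhlhe41 (0.00214), Csnk1e (0.0464), Wee1 (0.00725), Klf10 (0.00335) and Atf3 (0.0162). The cause of these differences was not tested. At 3 to 26 counts per library, counting error limits Npas2 more than any other member.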
